A study of Mus musculus with 32 samples.

Results

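Plpp3 and Ormdl1 are 2 genes of lipid signalling and sphingolipid control among 8251 genes that had a probe set of their own on a mouse expression array. They were chosen by their measured log2 values at 30 h after partial hepatectomy, which were lower in Rps6-deleted livers, so all values at 30 h are given as a description, with no test. Each gene (Entrez 67916 for Plpp3 and 227102 for Ormdl1) was read by 1 probe set, and both probe sets passed the filter on low values.

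The study measured messenger RNA in 32 livers of male C57BL/6 mice aged 3 months, collected 0, 20, 30 or 40 h after partial hepatectomy, in which part of the organ is cut away and the remainder regrows. All mice were homozygous for a floxed allele of Rps6, which encodes a protein of the small ribosomal subunit. Cre plus mice also carried mx-cre, a Cre recombinase under the interferon-responsive Mx promoter, and Cre minus mice did not. Polyinosinic-polycytidylic acid, which induces interferon and so the Mx promoter, was injected to delete Rps6. The sources used here do not say whether Cre minus mice were injected or how long before surgery. The Mx promoter is not restricted to hepatocytes, since Mx-Cre is known to act in blood-forming cells and macrophages too. Each group held 4 livers, except that Cre plus had 3 at 30 h and 5 at 40 h. The labels name the batches PHX2 and PHX3, and each group had livers in both.

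Plpp3 (phospholipid phosphatase 3) sits at the cell surface, where it removes the phosphate from lysophosphatidate, sphingosine 1-phosphate, phosphatidate and ceramide 1-phosphate. It ends the signals that lysophosphatidate and sphingosine 1-phosphate send through their receptors. Ormdl1 is a membrane protein of the endoplasmic reticulum. With its relatives Ormdl2 and Ormdl3 it inhibits serine palmitoyltransferase, the enzyme of the first step of sphingolipid synthesis.

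The RefSeq annotation of build GRCm38.p6 places Plpp3 on the plus strand of chromosome 4, from 105157347 to 105232767, and Ormdl1 on the plus strand of chromosome 1, from 53297095 to 53310245. The 250 bases before each annotated start, chr4:105157097-105157346 and chr1:53296845-53297094, are shown because both genes were lower in the same groups of livers. They run 5′ to 3′ from RefSeq, and capitals mark the motifs found.
Plpp3: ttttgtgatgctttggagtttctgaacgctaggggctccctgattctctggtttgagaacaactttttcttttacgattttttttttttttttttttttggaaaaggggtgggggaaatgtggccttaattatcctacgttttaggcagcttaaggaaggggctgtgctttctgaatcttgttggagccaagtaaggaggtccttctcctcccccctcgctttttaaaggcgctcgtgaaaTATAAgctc
Ormdl1: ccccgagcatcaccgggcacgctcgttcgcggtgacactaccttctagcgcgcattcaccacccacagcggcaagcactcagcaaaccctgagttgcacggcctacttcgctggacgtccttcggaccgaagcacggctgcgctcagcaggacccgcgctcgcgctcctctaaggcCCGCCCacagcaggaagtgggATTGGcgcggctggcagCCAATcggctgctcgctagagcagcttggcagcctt
Both strands were searched for the TATA box core with the letters TATAA, the CCAAT box, the GC box with the letters GGGCGG, the E-box with the letters CACGTG and the ETS core with the letters CCGGAAG, none of which overlapped in these windows. None of these 5 motifs was found in both windows. The Plpp3 window held 1 TATAA, starting at position −9 from the annotated start, a motif that 22.8% of 32851 mouse promoter windows of this length contained. The Ormdl1 window held 2 CCAAT boxes, at −53 on the minus strand and −36 on the plus strand, a motif in 33.8% of windows, and 1 GC box at −74 on the minus strand, a motif in 32.7%. The windows also differed in composition. The Plpp3 window was 42.4% G and C with 6 CpG dinucleotides, and the Ormdl1 window 65.6% with 25, against medians of 52.4% and 6 over all windows.

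The probe set of Rps6, shared with the pseudogene Rps6-ps4, read 10.99 to 11.82 (log2) in the 16 Cre minus livers and 6.24 to 7.69 in the 16 Cre plus livers, as the labels imply. Hepatocyte genes were high on all 32 arrays, with albumin (Alb) at 13.35 to 13.83. Over the tested probe sets the mean correlation with the other arrays of its group was under 0.95 for 3 arrays, Cre minus C and Cre plus A at 30 h and Cre plus D at 40 h. Most differences of Plpp3 and Ormdl1 that use these arrays, and the main counts of called genes, are also given without them. The interactions at 40 h, the correlations over 32 livers and the counts of some lists are given only with them. The 3′ minus 5′ difference of the Actb control probe sets, a sign of RNA integrity, was 0.81 to 0.88 in Cre plus livers at 30 h and 0.74 to 1.24 in Cre minus livers at 30 h. The difference between batches was called for neither gene (PHX3 minus PHX2, Plpp3 0.13, adjusted p = 0.337, and Ormdl1 0.14, adjusted p = 0.18, limma). Nothing in the labels says whether 2 samples of a group could share a mouse, so the spread behind each p-value is that between samples and may be technical.

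Plpp3 was lower in Rps6-deleted livers than in controls after surgery. Averaged over 0, 20 and 40 h, times whose group means the 30 h rule did not use, its level was 1.82-fold lower in Cre plus livers. The rule itself was set with earlier results of these data known. The difference passed the test at 20 and at 40 h but not at 0 h, and its change between times was not called. At 0 h the 4 Cre minus livers had log2 values of 8.07, 8.10, 8.28 and 8.41. The 4 Cre plus livers had 7.20, 7.41, 7.47 and 7.48. All Cre plus livers lay below all Cre minus livers, which was so for 1.36% of the 9249 probe sets tested. The log2 difference, Cre plus minus Cre minus, was −0.82 (SE 0.20, 95% interval −1.23 to −0.42, adjusted p = 0.238, limma with Benjamini-Hochberg adjustment over all probe sets), and it was −0.81 within PHX2 and −0.84 within PHX3. At 0 h 0.0649% of probe sets were called (adjusted p under 0.05). Fitted on the 8 arrays of 0 h alone, the same difference had an adjusted p of 0.00556, so the call depended on which arrays set the spread.

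At 20 h the Cre minus livers had Plpp3 values of 7.23, 7.46, 7.51 and 8.38, and the Cre plus livers 6.29, 6.43, 6.88 and 6.97. The groups did not overlap, as for 1.37% of probe sets that lay lower in this way, and 1 Cre minus liver stood well above the other 3. The difference was −1.004 (SE 0.20, 95% interval −1.41 to −0.60, adjusted p = 0.0138, 2.0-fold lower), with −1.008 within PHX2 and −0.9996 within PHX3. Of all probe sets 0.292% were called at 20 h. The call was lost without Cre minus A (−0.77, adjusted p = 0.0848), Cre plus C (−0.90, adjusted p = 0.0704) or Cre plus D (−0.95, adjusted p = 0.073).

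At 40 h Plpp3 read 6.87, 7.28, 7.58 and 7.80 in Cre minus livers and 6.22, 6.56, 6.67, 6.69 and 6.88 in Cre plus livers. The groups overlapped, because the lowest Cre minus liver (6.869) lay just under the highest Cre plus liver (6.876). The difference was −0.76 (SE 0.19, 95% interval −1.15 to −0.37, adjusted p = 0.0148, 1.69-fold lower), and 5.35% of all probe sets were called at this time. It was −1.41 within PHX2, which held 1 Cre minus and 2 Cre plus livers, and −0.50 within PHX3. Without the 3 arrays that stood apart, of which Cre plus D is in this comparison, it was −0.68 (adjusted p = 0.0388). The call was lost without Cre minus A (−0.71, adjusted p = 0.0636) or Cre minus D (−0.56, adjusted p = 0.0978).

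At 30 h, the time that chose the gene, Plpp3 read 7.487, 7.501, 7.686 and 7.968 in Cre minus livers and 6.12, 6.18 and 6.25 in Cre plus livers. The Cre plus livers spanned only 0.13 on the log2 scale and all lay below the controls, as for 3.43% of probe sets that lay lower in this way. The difference was −1.46 (SE 0.22), a 2.74-fold lower level, and −1.35 without the 3 arrays that stood apart. The mean difference over 0, 20 and 40 h was −0.86 (SE 0.11, 95% interval −1.09 to −0.63, adjusted p = 1.285e-05), against 3.09% of probe sets called in that comparison. Without the 3 arrays that stood apart it was −0.84 (adjusted p = 4.15e-05). It was −1.08 within PHX2 and −0.78 within PHX3, remained called in all 25 fits that each left out 1 liver, and had an adjusted p of 8.74e-05 when the 30 h arrays took no part in the fit. The change of the genotype difference from 0 h was −0.18 at 20 h (95% interval −0.76 to 0.40, adjusted p = 0.9997) and 0.07 at 40 h (−0.50 to 0.63, adjusted p = 0.9992). By limma 0% of probe sets were called for the first of these interactions (0 probe sets, 132 at an unadjusted p under 0.05) and 0.584% for the second.

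**Figure D1:**
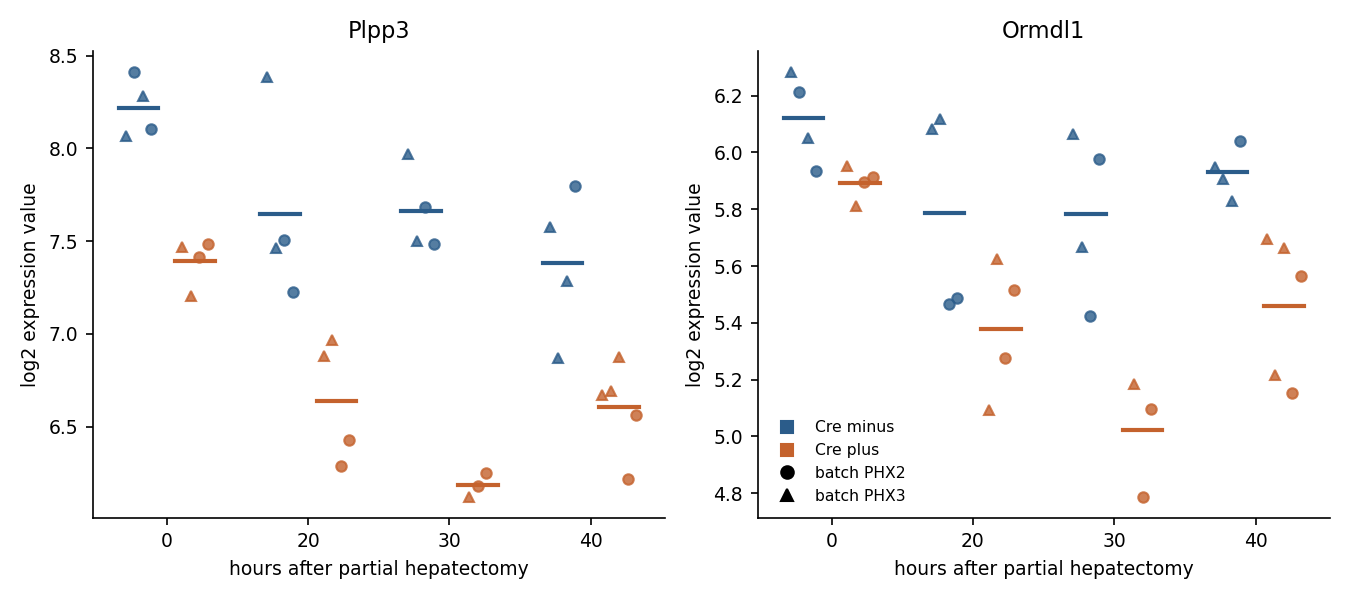
Log2 expression values of Plpp3 (left) and Ormdl1 (right) by hours after partial hepatectomy, 1 point per liver, with a horizontal line at each group's mean, colour for genotype and marker shape for batch. Cre plus livers lie below all Cre minus livers for Plpp3 at 0, 20 and 30 h and for Ormdl1 at 30 and 40 h.

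Ormdl1 showed a smaller difference in the same direction. Averaged over 0, 20 and 40 h it was 1.29-fold lower in Cre plus livers, and that average passed the test although none of the 3 times did alone. At 0 h the Cre minus livers had log2 values of 5.94, 6.05, 6.21 and 6.28 and the Cre plus livers 5.81, 5.90, 5.91 and 5.95. The groups overlapped in 1 pair of livers. The difference was −0.23 (SE 0.15, 95% interval −0.54 to 0.09, adjusted p = 0.9999), −0.17 within PHX2 and −0.28 within PHX3.

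At 20 h Ormdl1 read 5.46, 5.49, 6.08 and 6.12 in Cre minus livers and 5.09, 5.28, 5.52 and 5.62 in Cre plus livers. The Cre minus livers split by batch, with both PHX3 livers above 6 and both PHX2 livers among the Cre plus values. The difference was −0.41 (SE 0.15, 95% interval −0.72 to −0.10, adjusted p = 0.707), −0.08 within PHX2 and −0.74 within PHX3.

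At 40 h the Cre minus livers had Ormdl1 values of 5.83, 5.91, 5.95 and 6.04 and the Cre plus livers 5.15, 5.21, 5.56, 5.66 and 5.70. All Cre plus livers lay below all Cre minus livers, as for 3.08% of probe sets. The difference was −0.45 (SE 0.14, 95% interval −0.75 to −0.15, adjusted p = 0.0686), −0.68 within PHX2 and −0.37 within PHX3, and −0.40 without the 3 arrays that stood apart (adjusted p = 0.11). At 30 h, the time that chose the gene, the Cre minus livers had 5.42, 5.67, 5.98 and 6.07 and the Cre plus livers 4.79, 5.10 and 5.18. These groups did not overlap, as for 3.43% of probe sets that lay lower in this way. The difference was −0.74 (SE 0.16), a 1.67-fold lower level, and −0.91 without the 3 arrays that stood apart. The Cre plus values at 30 h stood at percentiles 30.3, 35.2 and 38.0 of their arrays, near the filter's 30th. Whether background limited the Ormdl1 differences was not tested.

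The mean Ormdl1 difference over 0, 20 and 40 h was −0.36 (SE 0.09, 95% interval −0.54 to −0.19, adjusted p = 0.014). It remained called in all 25 fits that each left out 1 liver and had an adjusted p of 0.0128 when the 30 h arrays took no part. Without the 3 arrays that stood apart it was −0.35 (adjusted p = 0.0154). Within PHX2 alone it was −0.31 (adjusted p = 0.699) and within PHX3 alone −0.47 (adjusted p = 0.0289). The change of the genotype difference from 0 h was −0.18 at 20 h (95% interval −0.63 to 0.26) and −0.23 at 40 h (−0.66 to 0.21), neither of them called (adjusted p = 0.9997 and 0.9992).

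**Figure D2:**
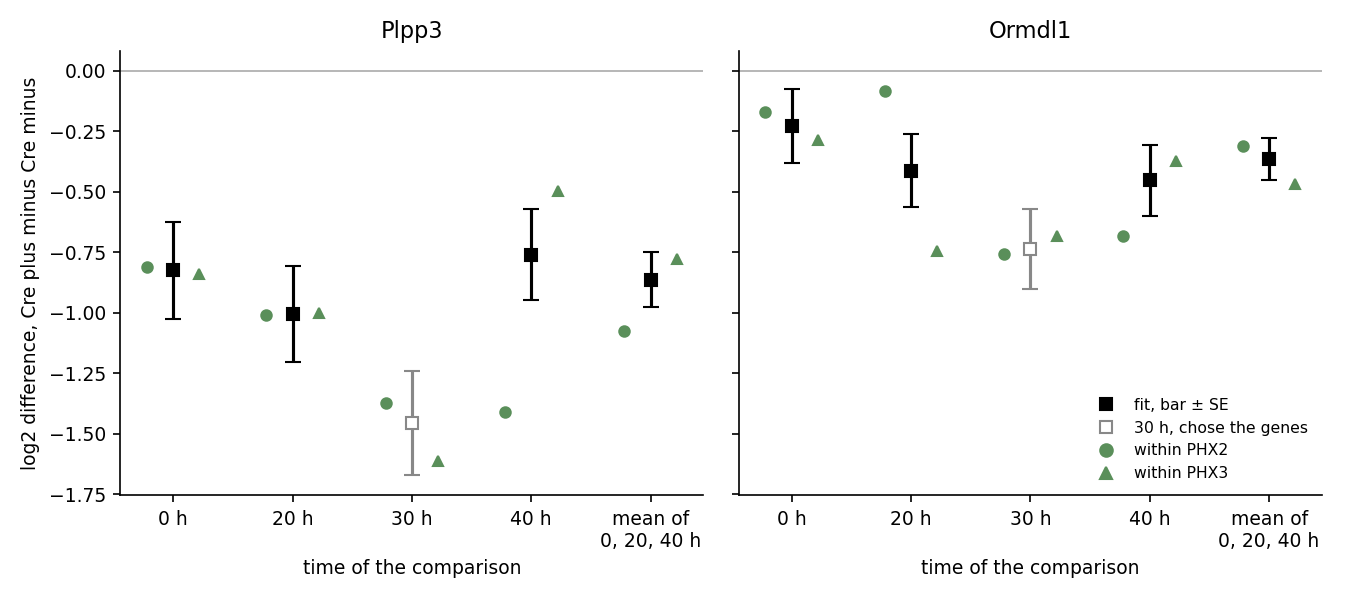
Log2 difference between Cre plus and Cre minus livers for Plpp3 (left) and Ormdl1 (right) at each time and averaged over 0, 20 and 40 h. Squares are fitted differences with bars of 1 SE, the open square is the time that chose the genes, and green markers are differences within each batch, all of which lie below 0.

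In the fit used here, a list of 14 probe sets was called lower in Cre plus livers at 30 h, where 0.281% of all probe sets were called in either direction. By p-value Plpp3 stood at rank 2 of the 14, behind Rps6, and Ormdl1 at rank 13, at the edge of the list. The same arrays chose the 2 genes, so their places in the list are a description and carry no test. The last probe set inside was Mxd4, with a difference of −0.59, and the first outside was Timm10b, with −0.47. The other named genes of the list, in order of p, were Ttc4, Slc39a9, 1810058I24Rik, Cd5l, Dipk2a, Clec4f, Krtcap2, Mif4gd and Pola1. Of these, Cd5l (−1.74) and Clec4f (−1.15) are in the list of Kupffer cell and macrophage markers described further on, and the rest are in none of the marker lists.

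Both genes were also followed over time within each genotype. The comparisons of one genotype share its 0 h livers and are not independent, and the labels name no sham-operated livers. Plpp3 fell in both genotypes. In Cre minus livers its mean was 8.22 ± 0.16 at 0 h (SD, n = 4), 7.64 ± 0.51 at 20 h (n = 4), 7.66 ± 0.22 at 30 h (n = 4) and 7.38 ± 0.40 at 40 h (n = 4). By 20 h it had changed by −0.57 (SE 0.20, adjusted p = 0.0774, 7.37% of probe sets called), and by 40 h it had fallen, with a change of −0.87 (SE 0.20, adjusted p = 0.00882, 4.77% called). The first became a call without Cre minus A at 20 h (−0.81, adjusted p = 0.00793), and the second lost its call without Cre minus B at 40 h (−0.69, adjusted p = 0.0531).

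In Cre plus livers the Plpp3 mean was 7.39 ± 0.13 at 0 h (SD, n = 4), 6.64 ± 0.33 at 20 h (n = 4), 6.18 ± 0.06 at 30 h (n = 3) and 6.60 ± 0.24 at 40 h (n = 5). The change by 20 h was −0.75 (SE 0.20, adjusted p = 0.0176, 9.07% of probe sets called). By 40 h it was −0.80 (SE 0.19, adjusted p = 0.00799, 9.66% called), and at 30 h, as a description, −1.19. Without the 3 arrays that stood apart the change by 40 h was −0.73 (adjusted p = 0.0217). Without Cre plus C or D of 0 h the change at 20 h had an adjusted p of 0.0535 or 0.0573. Cre plus livers at 0 h had the level that Cre minus livers had at 40 h, 7.39 and 7.38, which was not tested.

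Ormdl1 fell in Cre plus livers, from 5.89 ± 0.06 at 0 h (SD, n = 4) to 5.38 ± 0.24 at 20 h (n = 4), 5.02 ± 0.21 at 30 h (n = 3) and 5.46 ± 0.26 at 40 h (n = 5). The change by 20 h was −0.52 (SE 0.15, adjusted p = 0.031), and by 40 h it was −0.45 (SE 0.14, adjusted p = 0.0472). Both calls rested on single livers. The change at 20 h had adjusted p-values of 0.0644 to 0.179 without Cre plus A, C or D of 0 h or Cre plus A of 20 h, and that at 40 h had 0.0618 to 0.141 without any of the 4 livers of 0 h or Cre plus B or D of 40 h. The change by 40 h was −0.38 without the 3 arrays that stood apart (adjusted p = 0.105). In Cre minus livers Ormdl1 was 6.12 ± 0.16, 5.79 ± 0.36, 5.78 ± 0.29 and 5.93 ± 0.09 at 0, 20, 30 and 40 h (SD, n = 4 each), with changes of −0.33 at 20 h (adjusted p = 0.202) and −0.23 at 40 h (adjusted p = 0.495).

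In the order of the 8 group means, both genes were lowest in Cre plus livers at 30 h and highest in Cre minus livers at 0 h. The 30 h livers chose the genes, so the places of the 30 h groups and the steps from them are a description only. For Plpp3 the 3 Cre plus groups after surgery were the lowest of all. The step from Cre plus at 30 h to the next group (6.18 to 6.60), that from Cre plus at 20 h to Cre minus at 40 h (6.64 to 7.38) and that from Cre minus at 30 h to 0 h (7.66 to 8.22) exceeded the larger SD of the neighbours. The other neighbours lay within it. For Ormdl1 the steps beyond the SD were those from Cre plus at 30 h to 20 h (5.02 to 5.38), from Cre plus at 40 h to Cre minus at 30 h (5.46 to 5.78) and from Cre minus at 40 h to 0 h (5.93 to 6.12).

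Most tested markers of Kupffer cells, the resident macrophages of the liver, and of other macrophages were called lower in Cre plus livers. Of 16 listed markers 11 could be tested. At 20 h 6 were called lower, where 0.292% of all probe sets were called, at 40 h 7 (5.35% of all called), and for the mean over 0, 20 and 40 h 9 (3.09% of all called). At 0 h none was called, a time at which only 0.0649% of all probe sets were, and all 11 differences were negative. The counts without the 3 arrays that stood apart were 7 at 20 h, 8 at 40 h and 9 for the mean. The median differences of the list were −0.46 at 0 h, −1.01 at 20 h, −0.68 at 40 h, −0.67 for the mean and −0.50 at 30 h, against medians of all probe sets between −0.01 and 0.01. Cd5l, a secreted macrophage protein, differed by −1.43 over the 3 times (SE 0.19, adjusted p = 1.415e-05), and Clec4f, a lectin of Kupffer cells, by −1.25 (SE 0.13, adjusted p = 9.96e-07). The markers not called for the mean were Marco, a scavenger receptor (−0.40, adjusted p = 0.215), and Lyz2, a lysozyme (−0.32, adjusted p = 0.234). The mean log2 level of the 11 markers was 7.84 to 8.14 in Cre minus and 7.28 to 7.80 in Cre plus livers at 0 h, 7.67 to 8.06 and 6.64 to 7.21 at 20 h, 7.32 to 7.82 and 6.69 to 7.26 at 30 h, and 7.40 to 8.08 and 6.66 to 7.31 at 40 h. The genotypes did not overlap in this level at any time. Of single probe sets 1.36%, 1.37%, 3.43% and 3.08% lay lower without overlap at 0, 20, 30 and 40 h. No such share was computed for means of several probe sets. In whole liver, fewer cells of a type and less RNA per cell cannot be told apart. The part of these markers in the Plpp3 and Ormdl1 results was not tested.

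**Figure D3:**
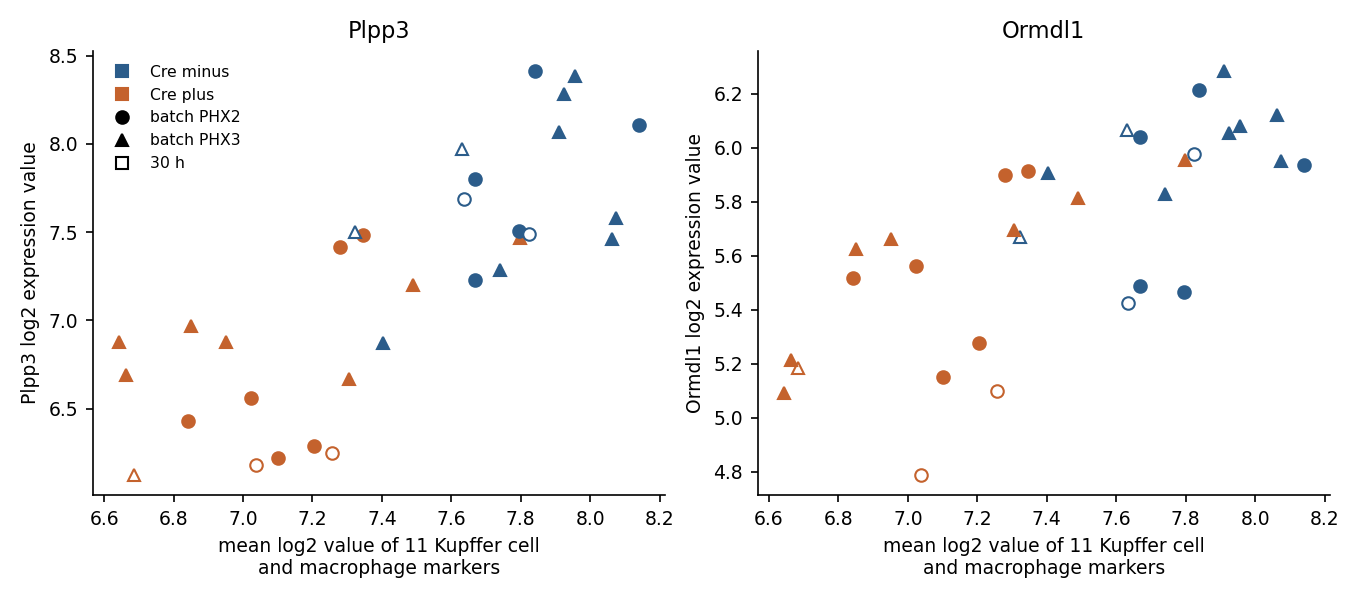
Log2 expression value of Plpp3 (left) and Ormdl1 (right) against the mean log2 value of 11 Kupffer cell and macrophage markers, 1 point per liver, with colour for genotype, marker shape for batch and open markers for 30 h. Most Cre plus livers lie to the lower left in both panels, and those of 30 h have marker levels of 6.69 to 7.26 with Plpp3 at 6.12 to 6.25.

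Of 6 tested erythroid markers 2 were called lower in Cre plus livers at 20 h (0.292% of all probe sets called) and 2 at 40 h (5.35%), none was called at 0 h, and 2 had a positive difference at 20 h and 2 at 40 h. The counts called at 20 and 40 h were again 2 and 2 without the 3 arrays that stood apart. The mean log2 level of the 6 overlapped between the genotypes, Cre minus given first, at 0 h (6.74 to 7.39 and 6.52 to 6.87) and at 20 h (6.71 to 7.94 and 6.11 to 6.72). It did not overlap at 30 h (6.99 to 7.39 and 6.00 to 6.62) or at 40 h (7.38 to 7.87 and 6.19 to 7.17). Of single probe sets 3.43% and 3.08% lay lower without overlap at these times, and no such share was computed for means. The part of these markers in the Plpp3 and Ormdl1 results was not tested. Endothelial markers (17 tested) had median differences of 0.10, 0.03 and 0.07 at 0, 20 and 40 h, and stellate cell and fibroblast markers (14 tested) of 0.01, 0.05 and 0.01. Of these lists 1 endothelial marker was called higher at 40 h and none lower at any of the 3 times. Hepatocyte markers (13 tested) had medians of −0.01, 0.00 and −0.10, with 1 called lower at 40 h. The lists of cholangiocytes, T and NK cells, B cells, neutrophils and platelets had no called member between the genotypes at 0, 20 or 40 h.

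Around the 2 genes, 6 lists of lipid pathway genes held 52 other genes that could be tested. Between the genotypes 1 of the 52 was called lower and 0 higher for the mean over 0, 20 and 40 h (3.09% of all probe sets called), 2 were called lower and 0 higher at 40 h (5.35%), and none at 0 h (0.0649%) or 20 h (0.292%). These shares lie near those of all probe sets, while 27, 27, 27 and 26 of the 52 had a positive difference for the mean, 0 h, 20 h and 40 h. Plpp3 and Ormdl1 sit in these lists and were chosen for their difference at 30 h, so the counts leave them out. Without the 3 arrays that stood apart, 2 of the 52 were called lower and 1 higher for the mean, and 2 lower and 3 higher at 40 h. The genes that became calls in that fit were Lpin1 for the mean (0.98, adjusted p = 0.0166) and at 40 h (1.40, adjusted p = 0.0415), Hexa for the mean (−0.27, adjusted p = 0.0203), and at 40 h Agpat3 (0.41, adjusted p = 0.0377) and Dgat1, an enzyme of triglyceride synthesis (0.38, adjusted p = 0.0464). Against 0 h 1 of the 52 rose and 5 fell in Cre minus livers at 20 h (7.37% of all probe sets called), and 0 rose and 3 fell at 40 h (4.77%). In Cre plus livers 4 rose and 7 fell at 20 h (9.07%), and 4 rose and 5 fell at 40 h (9.66%). Leaving out the 3 arrays that stood apart gave counts of 5 and 6, 0 and 3, 6 and 8, and 4 and 8.

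Among the lipid phosphate phosphatases, 6 of 17 listed genes could be tested. Plpp1, a relative of Plpp3 with the same enzyme activity, had genotype differences of 0.01, 0.26 and 0.40 at 0, 20 and 40 h. None was called (limma, adjusted p = 0.9999, 0.9989 and 0.184). Within PHX2 they were 0.09, −0.07 and 0.005, and within PHX3 −0.07, 0.59 and 0.54, so the sign differed between batches at 0 and 20 h. Plpp1 rose in Cre plus livers at 20 h by 0.76 (SE 0.17, adjusted p = 0.00739), from a mean of 6.51 to 7.27, where Plpp3 fell. In Cre minus livers at 20 h the Plpp1 change was 0.51 and not called (adjusted p = 0.072). The Plpp1 changes of the genotypes differed by 0.25, also not called (adjusted p = 0.9997). Lpin1, a phosphatidate phosphatase of glycerolipid synthesis, rose in Cre plus livers at 20 h by 2.16 (SE 0.53, adjusted p = 0.0118). At 40 h its level was 6.63 to 7.14 in Cre minus and 7.75 to 9.30 in Cre plus livers, a difference of 1.53 that was not called (SE 0.51, adjusted p = 0.0844). Lpin2, of the same family, rose in Cre plus livers at 40 h by 1.01 (SE 0.32, adjusted p = 0.0426). Plpp2 is named only.

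Of the genes that make, carry or sense lysophosphatidate and sphingosine 1-phosphate, 10 of 19 could be tested and none was called between genotypes. S1pr1, a receptor for sphingosine 1-phosphate, read lower at 20 h than at 0 h in both genotypes. The changes were −0.47 in Cre minus (adjusted p = 0.0301) and −0.51 in Cre plus livers (adjusted p = 0.0165). By 40 h the change was −0.59 in Cre plus livers (adjusted p = 0.00447). These levels were low. In Cre plus livers the S1pr1 mean went from 5.12 to 4.61 by 20 h and 4.54 by 40 h. In Cre minus livers it went from 5.07 to 4.61 by 20 h. For scale, the Ormdl1 value of 4.79 on the array of Cre plus B at 30 h stood at percentile 30.3, close to the filter's 30th. Whether background limited the S1pr1 changes was not tested. Apom, which carries sphingosine 1-phosphate in plasma, fell by 0.52 and 0.46 at 20 h in Cre minus and Cre plus livers (adjusted p = 0.0298 and 0.0492). Sphk1, a kinase that makes sphingosine 1-phosphate, rose in Cre plus livers at 40 h by 0.58 (adjusted p = 0.0488), a call lost without the 3 arrays that stood apart (0.47, adjusted p = 0.107).

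Of the phosphatidate and diacylglycerol genes 19 of 36 could be tested and none was called between genotypes. Pcyt2, of phosphatidylethanolamine synthesis, fell after surgery in all 4 comparisons, by 0.56 and 0.50 in Cre minus livers and by 0.75 and 0.67 in Cre plus livers at 20 and 40 h (adjusted p = 0.00117, 0.00219, 4.279e-05 and 7.658e-05). Gpam, the acyltransferase of the first step of glycerolipid synthesis, fell in Cre minus livers at 40 h by 0.96 (adjusted p = 0.0181). In Cre plus livers its mean went from 10.23 to 9.52 by 40 h, which was not called. Pemt, which methylates phosphatidylethanolamine, fell in Cre plus livers at 20 h by 0.49 (adjusted p = 0.0486), and Agpat3, an acyltransferase, rose in them at 40 h by 0.50 (adjusted p = 0.0374). In Cre minus livers the Pemt mean went from 10.92 to 10.62 by 20 h. The Agpat3 mean there went from 8.20 to 8.56 by 40 h, and neither change was called.

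For the enzyme that Ormdl1 inhibits no subunit was called. Sptlc1 and Sptlc2, the subunits of serine palmitoyltransferase, had mean genotype differences over 0, 20 and 40 h of −0.03 (SE 0.09, adjusted p = 0.97) and 0.04 (SE 0.10, adjusted p = 0.947), against −0.36 for Ormdl1. Neither was called in any of the comparisons at 0, 20 and 40 h. Ormdl2 and Ormdl3 were read only by probe sets annotated to a second gene as well, so no value is given for them. Of the 8 genes of this list 4 could be tested, among them Sptssa, a small subunit of the enzyme, with a mean difference of −0.13.

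In ceramide and complex sphingolipid synthesis 6 of 21 genes could be tested and none was called between genotypes. St3gal5, the sialyltransferase that makes ganglioside GM3, rose strongly after surgery, by 2.13 in Cre minus (SE 0.42, adjusted p = 0.00322) and 2.54 in Cre plus livers at 20 h (SE 0.42, adjusted p = 0.000656), and by 2.11 in Cre plus livers at 40 h (SE 0.40, adjusted p = 0.0016). Ugcg, which makes glucosylceramide, rose in Cre plus livers at 20 h by 0.99 (adjusted p = 0.0407). In Cre minus livers its mean went from 5.16 to 6.12 by 20 h, a change of similar size that was not called.

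Of 21 genes of sphingolipid breakdown, most of which act in the lysosome, 9 could be tested, and 2 were called between genotypes at 40 h, where 5.35% of all probe sets were called. The differences were negative for 7 of the 9 at 0 h, 7 at 20 h and 9 at 40 h, with medians of −0.12, −0.10 and −0.24 against −0.01 to 0.00 over all probe sets. Psap, the precursor of the saposins that help lysosomal enzymes act on sphingolipids, was called lower at 40 h (−0.33, SE 0.09, adjusted p = 0.0208) and for the mean over 0, 20 and 40 h (−0.23, SE 0.05, adjusted p = 0.00767). Hexa, a subunit of hexosaminidase, was called lower at 40 h (−0.43, SE 0.12, adjusted p = 0.0352). Psap was read by 3 probe sets, and the value is that of the brightest. For the mean over 0, 20 and 40 h the others gave −0.15 (adjusted p = 0.022) and −0.35 (adjusted p = 0.214). After surgery Glb1, the lysosomal beta-galactosidase, fell in both genotypes at both times by its brighter probe set, by 0.49 and 0.37 in Cre minus and 0.40 and 0.35 in Cre plus livers (adjusted p = 0.00716, 0.0444, 0.0221 and 0.0295). A dimmer Glb1 probe set was called for the first of these (−0.44, adjusted p = 0.0306) but not for the others, with changes of 0.02, −0.15 and −0.03 (adjusted p = 0.953, 0.529 and 0.92). Gm2a, the activator of ganglioside GM2 breakdown, fell by 0.56 in Cre minus livers at 20 h and by 0.65 and 0.63 in Cre plus livers at 20 and 40 h (adjusted p = 0.0262, 0.00939 and 0.00775). Psap fell in Cre plus livers by 0.40 and 0.37 (adjusted p = 0.00752 and 0.00718) by its brightest probe set, while the others were not called for these changes.

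**Figure D4:**
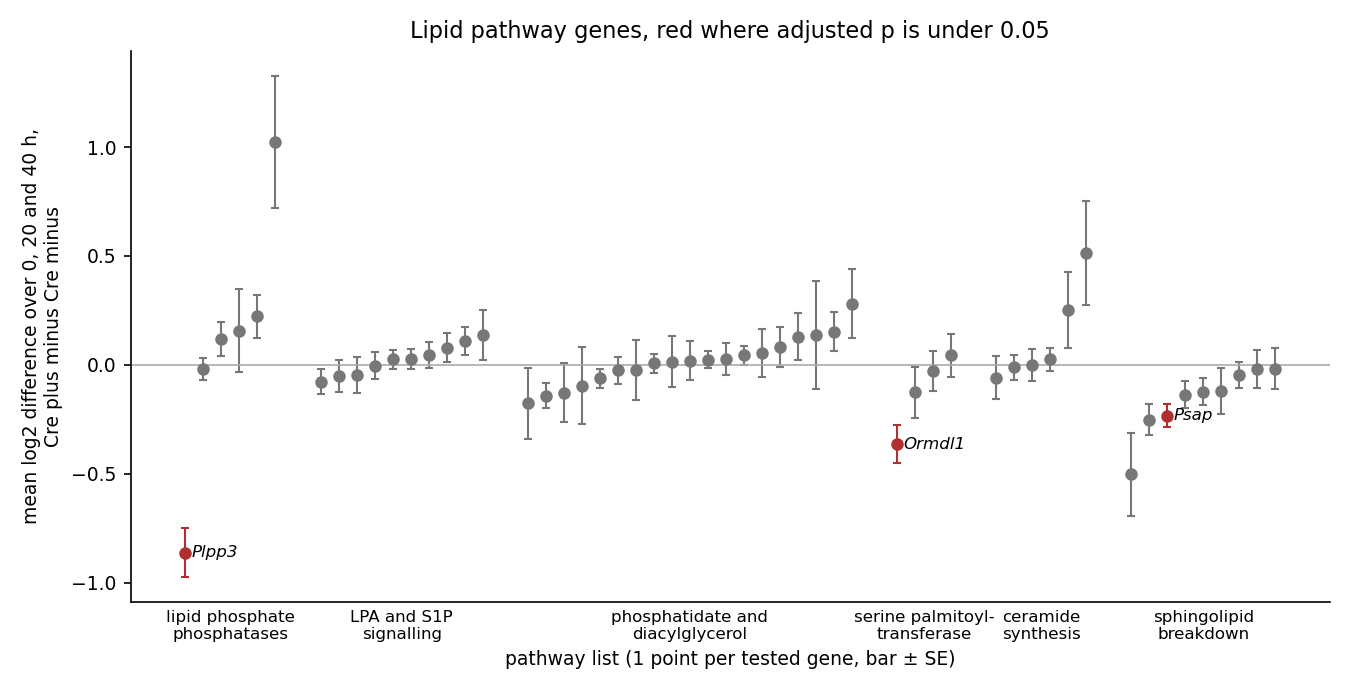
Mean log2 difference over 0, 20 and 40 h between Cre plus and Cre minus livers for the 54 tested genes of 6 lipid pathway lists, 1 point per gene with bars of 1 SE, red where the adjusted p is under 0.05. Plpp3, Ormdl1 and Psap are the red points, and Plpp3 at −0.86 lies lowest.

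Across the 32 livers, after the mean of each batch was subtracted, Plpp3 and Ormdl1 followed each other with Pearson r of 0.82 and Spearman rho of 0.76. The r was 0.80 over the 25 livers of 0, 20 and 40 h. Of all probe sets 99.97% had a lower r with Plpp3 than Ormdl1 had. These values describe livers that share genotype and time groups, and both genes were chosen for the same direction at 30 h, so they carry no test.

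The 5 genes most like Plpp3 over 32 livers were Ctsc (r = 0.85), Ormdl1 (0.82), Trp53inp2 (0.81), Tmsb4x (0.81) and S100a13 (0.80). Over the 25 livers without 30 h they were Ctsc (0.85), a lysosomal protease, Adgre1 (0.84), Msr1 (0.81), Zfx (0.81) and Ormdl1 (0.80). Adgre1 encodes F4/80, a surface marker of macrophages, and Msr1 a scavenger receptor of macrophages. Adgre1 is in the list of macrophage markers, with a mean genotype difference of −0.34 (adjusted p = 0.0265), and Msr1 is not, with −0.27 (adjusted p = 0.0641).

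The 5 genes most like Ormdl1 over 32 livers were Rbbp4 (r = 0.88), Igfals (0.87), Dynll2 (0.86), Psap (0.86) and Gatm (0.86), of which Psap recurs from the list of sphingolipid breakdown. Over the 25 livers without 30 h they were Slc31a1 (0.87), Pex6 (0.87), Gatm (0.86), Lcp1 (0.86) and Ubl5 (0.86). Gatm, an enzyme of creatine synthesis, is the gene in both sets.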

How the data were processed

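Liver RNA was read on 32 one-colour Affymetrix arrays with 12488 probe sets, deposited as log2 values. The authors ran RMA on the arrays, as the submitters' processing notes list it. Values of 2.30 to 14.12 were read as base 2. The sources used here give no RMA version and do not say if PHX2 and PHX3 were normalized jointly. RMA gives all arrays 1 distribution, so differences are relative to the other probe sets. Of the probe sets, the platform's annotation gave 10833 a name with 1 gene, 396 with several and 1193 unnamed here, besides 66 controls. Symbols were checked through RefSeq Entrez IDs (16 without a match).

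The filter kept 9249 of the 12422 probe sets other than controls, those with 3 or more arrays on which they exceeded that array's 30th percentile over the same 12422. The controls were first included in that percentile, and they were left out after results had been seen. limma 3.58.1 in R 4.3.3 (lmFit, eBayes, 2-sided) fitted the 8 groups and the batch over all 32 arrays, with Benjamini-Hochberg adjustment within each comparison and calls at 0.05. The number of arrays limits the precision. In data simulated on 9249 probe sets, with 100 changed by a log2 size of 1, the fit recovered 84 at 0 h, 85 at 20 h, 90 at 40 h and 98 for the mean over these times. At a size of 0.5, planted on 100 others in the same run, it recovered 62, 60, 55 and 88 of 100. False calls among unchanged probe sets numbered 17, 8, 8 and 14. Their share of all calls was above the nominal level at 0 h, where it was largest, and for the mean. At 20 and 40 h it was close to that level. The run was not repeated, so the error rate at each time is not known. The simulated noise was independent between probe sets, and the adjustment is milder where many probe sets are changed. In the real data 6 were called at 0 h and 27 at 20 h, so the recovery at these times may be overstated.

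Genes in lists entered by their probe set with the highest mean. Named genes were the 2 members, Rps6, close relatives, up to 4 called genes for each list and comparison by size with the same sign in both batches, the 5 genes most like each member and the probe sets at the edge of the list of lower probe sets at 30 h. The genes most like a member over 25 livers, the other genes of the list at 30 h, and Cd5l, Clec4f, Marco, Lyz2, Sptssa, Dgat1, and Lpin1, Agpat3 and Hexa where no rule named them, were named after their values were seen. The members, the lists and the rule were chosen with earlier results of these data known. Replicate letters did not pair the samples, since 4 of 15 pairs with the same letter and time correlated above 0.1 in their deviations from group means. Alternatives were other scalings, filters, batch terms, array weights, moderation settings, arrays in the fit and single livers left out.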

Additional observations from a re-analysis of the deposited data

How the results depend on the processing

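Of 512 combinations of a Plpp3 or Ormdl1 result with an alternative, 458 kept their direction and side of the threshold, 41 lost and 6 gained a call and 7 uncalled differences changed sign. Why they did was not tested, except that single batches and single comparisons hold fewer arrays. Values are log2 differences. With array weights Plpp3 at 0 h was −0.83 and became a call (−0.82 and a call on its arrays alone), as did the Cre minus change at 20 h of Plpp3 (−0.70) and Ormdl1 (−0.40), while Ormdl1 at 30 h moved to −1.04. On its arrays alone Plpp3 lost its call at 20 h (−1.004) and 40 h (−0.78). With PHX2 alone the calls of Plpp3 at 20 h (−1.01), of its Cre minus change at 40 h (−0.46), of its Cre plus change at 20 h (−1.09) and of the Ormdl1 mean (−0.31) were lost, and the Plpp3 Cre minus change at 20 h became one (−0.89). With PHX3 alone Plpp3 lost its calls at 20 h (−0.9996), at 40 h (−0.50), for the Cre minus change at 40 h (−0.93) and for the Cre plus changes at 20 h (−0.41) and 40 h (−0.59). The Ormdl1 Cre plus change at 20 h was lost with PHX2 (−0.51) or PHX3 (−0.53) alone. The Ormdl1 Cre plus change at 40 h lost its call in 10 alternatives, with median centring (−0.45), no filter (−0.45), no batch term (−0.44), the batch as a random block (−0.45), PHX2 (−0.55) or PHX3 alone (−0.36), the replicate block (−0.51, adjusted p = 0.0558), array weights (−0.34), without the 3 arrays that stood apart (−0.38) and on its arrays alone (−0.44). The replicate letters do not pair the samples, and the replicate block changed no other call of the 2 genes.

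The alternative without 3 arrays was chosen after seeing the data, over the tested probe sets. Over all probe sets other than controls, as first set, no array fell under 0.95.

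Leaving out 1 liver at a time, Plpp3 ranged from −1.13 to −0.77 at 20 h and from −0.94 to −0.56 at 40 h. Its Cre minus changes ranged from −0.81 to −0.45 at 20 h and from −1.08 to −0.69 at 40 h, and its Cre plus change at 20 h from −0.84 to −0.65. The Ormdl1 Cre plus changes ranged from −0.59 to −0.39 at 20 h and from −0.50 to −0.38 at 40 h. The uncalled Plpp3 interaction ranged from −0.30 to 0.055 at 20 h and from −0.12 to 0.27 at 40 h. Interactions that changed sign were those of Plpp3 at 20 h with array weights (0.060) and at 40 h with PHX2 alone (−0.60), and of Ormdl1 at 20 h with PHX2 alone (0.089).

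The number of probe sets called moved by more than 1.5 times in some alternatives. It was 6 at 0 h (2 to 55), 27 at 20 h (1 to 289), 495 at 40 h (12 to 861) and 286 for the mean (10 to 732), lowest with PHX2 alone. It was 26 at 30 h, the comparison that chose the genes, with a range of 2 to 2436.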
